A study of Mus musculus with 2 samples.

Results

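The genes described here are 32 mouse genes that encode chromatin remodelers and histone modifiers, taken as a named list. No cutoff on a measured value selected them, but the list was chosen with earlier results of these data known. They were followed in Prrc2a RIP-seq, which sequences the RNA recovered with an antibody against the RNA-binding protein Prrc2a. Of the 32 genes, 26 (81.2%) carried an exonic peak found in both replicates, of 2629 such genes among the 21951 protein-coding genes of the annotation. Replicate 1 contributed 210 peaks over these exons, from 18129 in its list, and replicate 2 contributed 268, from 18671.

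The samples were 2 replicates of 1 group, the Prrc2a RIP from whole brain of wild type C57BL/6J male mice at 4 week of age. The protocol describes 3 brains lysed together and does not say how they were divided between the replicates, so the spread between the replicates may be technical. For each peak the authors deposited a position on mm10 (GRCm38) and a fold enrichment, which is a linear ratio to a control library that the methods do not name. No strand, read count or sequencing depth accompanies a peak, so the absence of a peak may also mean that too few reads were obtained. In RNA from a whole brain, fewer cells of a type and less RNA per cell cannot be told apart either. Peaks were assigned to a gene when they covered at least 1 bp of an exon of any transcript in GENCODE release M21, and a replicate 1 peak was called shared if it had 1 bp or more in common with any replicate 2 peak. The fold enrichment quoted for replicate 2 is that of the replicate 2 peak with the longest overlap.

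As background, chromatin remodelers use ATP to slide or evict nucleosomes, and histone modifiers add or remove methyl and acetyl groups on histone tails or bring the enzymes that do so. Many of these proteins are large, are used in most cell types, and are needed in the right dose in the developing brain, where loss of a single copy of several of the genes is a known cause of intellectual disability or autism. Prrc2a has been described as a reader of m6A, a methyl mark on adenosines of messenger RNA that is placed mainly within GGAC and related motifs.

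Coding stretches from 5 genes among those with the strongest or most instructive peaks are shown first, each with every GGAC in capitals, so that the sequence can be read beside the values below. Each is the central part, at most 200 bases, of the coding bases covered in both replicates, written from 5′ to 3′ on the strand of the gene on GRCm38. They come from exon 3 of Chd9 (chr8:90932977-90933176, plus strand), exon 10 of Setd1b (chr5:123158569-123158768, plus strand), exon 2 of Ep300 (chr15:81601127-81601326, plus strand), exon 6 of Kdm6b (chr11:69407435-69407634, minus strand) and exon 21 of Crebbp, which is only 57 bp long (chr16:4099675-4099731, minus strand).
Chd9 exon 3: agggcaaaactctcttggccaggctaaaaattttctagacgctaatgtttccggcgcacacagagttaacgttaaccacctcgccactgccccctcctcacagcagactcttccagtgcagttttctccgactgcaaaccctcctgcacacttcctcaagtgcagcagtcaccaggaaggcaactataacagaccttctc
Setd1b exon 10: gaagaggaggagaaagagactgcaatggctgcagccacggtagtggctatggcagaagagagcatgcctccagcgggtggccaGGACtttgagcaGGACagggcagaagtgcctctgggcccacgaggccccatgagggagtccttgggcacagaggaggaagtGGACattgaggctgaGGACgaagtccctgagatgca
Ep300 exon 2: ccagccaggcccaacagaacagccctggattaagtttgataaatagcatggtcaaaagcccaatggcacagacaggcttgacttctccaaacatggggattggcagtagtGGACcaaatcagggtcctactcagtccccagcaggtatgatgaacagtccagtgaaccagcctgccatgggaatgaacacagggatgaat
Kdm6b exon 6: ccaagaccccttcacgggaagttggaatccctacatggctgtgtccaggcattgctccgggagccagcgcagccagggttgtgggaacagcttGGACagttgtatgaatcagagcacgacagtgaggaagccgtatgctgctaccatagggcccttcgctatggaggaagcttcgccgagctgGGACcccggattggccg
Crebbp exon 21: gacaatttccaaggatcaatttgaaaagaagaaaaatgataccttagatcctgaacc
The Setd1b stretch holds 4 GGAC, the Kdm6b stretch 2 and the Ep300 stretch 1. The printed stretches of Chd9 and Crebbp hold none, and the whole 1120 bp covered in both replicates over Chd9 exon 3 holds 3.

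In replicate 1, 27 of the 32 genes had an exonic peak, where 16.5% of all protein-coding genes did. In replicate 2, 31 of the 32 genes had one, against 21.0% of all protein-coding genes. The 26 genes with a shared peak compare with 12.0% of all protein-coding genes. Long transcripts offer more room for peaks, and these genes are long, with a median exonic length of 13175.5 bp (range 6475 to 23148 bp) against 3498 bp for all protein-coding genes. Among the 4388 protein-coding genes within that range of exonic length, 31.5% had a shared peak. The range sets limits only, and lengths within it were not matched to those of the 32 genes. At least 5 shared peaks were found in 13 of the 32 genes, compared with 2.01% of all protein-coding genes and 8.39% of those in the length range. Per 10 kb of exon, the 32 genes carried 3.27 shared peaks, all protein-coding genes 0.751, and those in the length range 1.13. No test was applied to these shares, since 1 condition offers no comparison of samples.

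**Figure D1:**
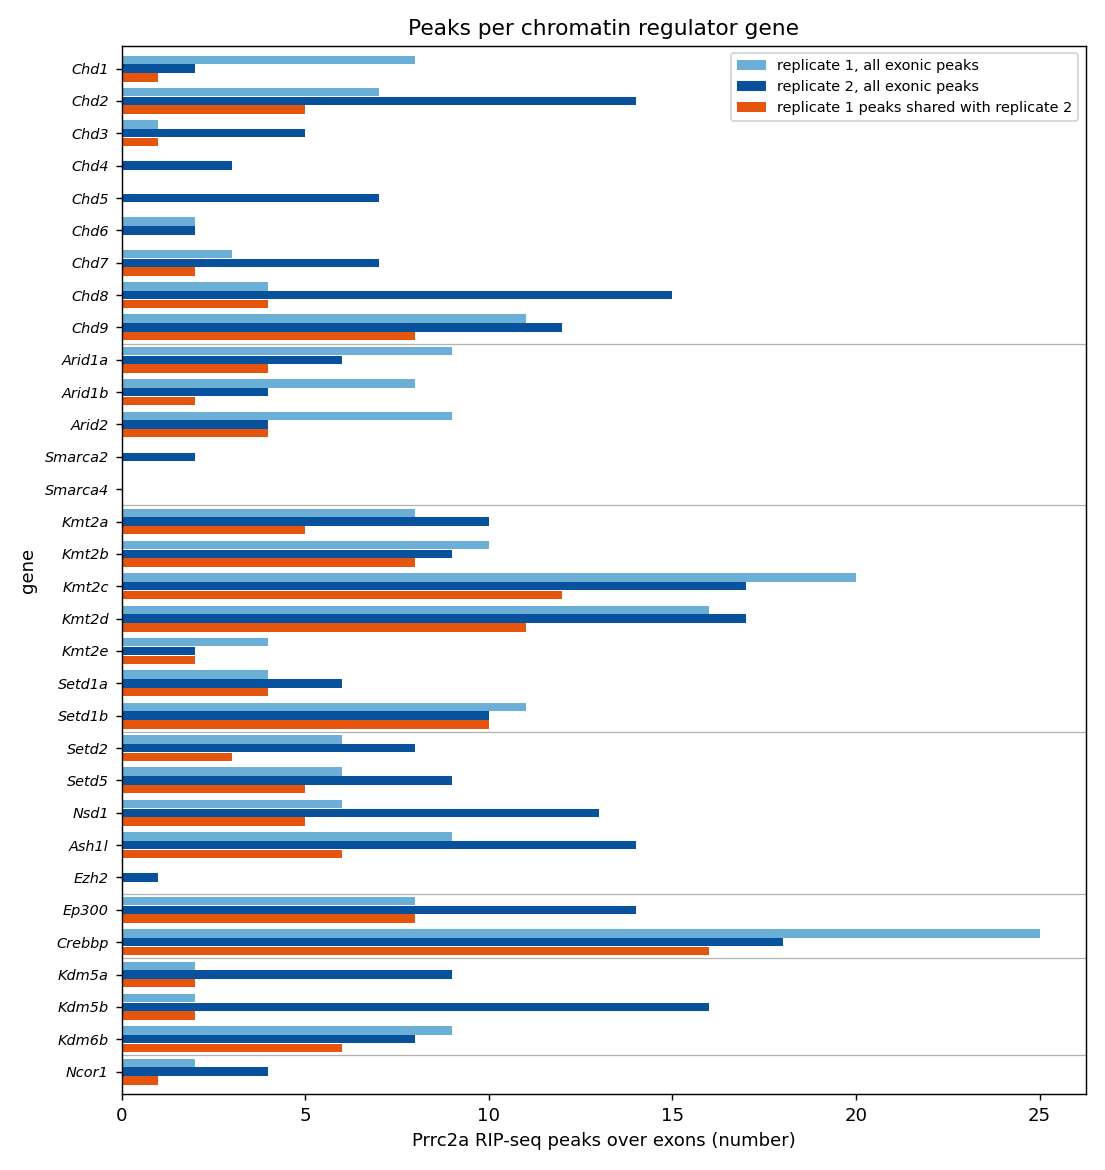
Number of Prrc2a RIP-seq peaks over the exons of each of the 32 genes (horizontal axis, number of peaks), with light blue bars for all exonic peaks of replicate 1, dark blue bars for those of replicate 2 and orange bars for replicate 1 peaks shared with replicate 2. Grey lines divide the genes by role. Crebbp and Kmt2c have the longest orange bars (16 and 12), and Chd4, Chd5, Chd6, Smarca2, Smarca4 and Ezh2 have none.

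Of the replicate 1 peaks over the 32 genes, 137 of 210 (65.2%) were shared, beside 61.3% of the 11934 replicate 1 peaks over exons of all protein-coding genes. Counted from replicate 2, 159 of 268 (59.3%) were shared, beside 47.9% of 16084. The 137 shared peaks were unevenly spread. The 6 genes with the most, Crebbp (16), Kmt2c (12), Kmt2d (11), Setd1b (10), and Chd9 and Ep300 (8 each), held 65 of them (47.4%), with Kmt2b level with the last pair at 8. Of the remaining genes, 3 had a single shared peak (Chd1, Chd3 and Ncor1). More exonic peaks were called in replicate 2 than in replicate 1 for 20 genes, fewer for 10 and the same number for 2.

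The peaks over these genes were of modest height. The fold enrichment ranged from 1.29 to 6.45 in replicate 1 (median 2.13) and from 1.33 to 11.7 in replicate 2 (median 2.48), where the medians for peaks over exons of all protein-coding genes were 2.35 and 2.50. A fold enrichment of at least 4 was reached by 9 of 210 peaks in replicate 1 (4.29%), against 13.3% of all peaks over protein-coding exons, and by 24 of 268 in replicate 2 (8.96%), against 13.8%. In both replicates at once it was reached by 5 shared peaks in 3 genes, Chd9, Kmt2c and Crebbp. Of all protein-coding genes, 1.59% had such a peak. Counted by gene, such a peak was thus more frequent here than among all protein-coding genes, a comparison not restricted to the length range. Counted by peak, a fold enrichment of at least 4 was less frequent here in each replicate. The median lay below that of all peaks over protein-coding exons in replicate 1 (2.13 against 2.35) and was nearly equal in replicate 2 (2.48 against 2.50). Across the 137 shared peaks, which come from the same 2 libraries, fold enrichment in replicate 1 and replicate 2 had a Spearman correlation of 0.474 and a Pearson correlation of log2 values of 0.557. The median log2 ratio of replicate 1 over replicate 2 was -0.28 (SD over peaks 0.43). Replicate 1 was the higher for 36 of 137 peaks, and the replicates lay within 1.5-fold of each other for 107. The order of single genes by fold enrichment is thus known only coarsely.

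**Figure D2:**
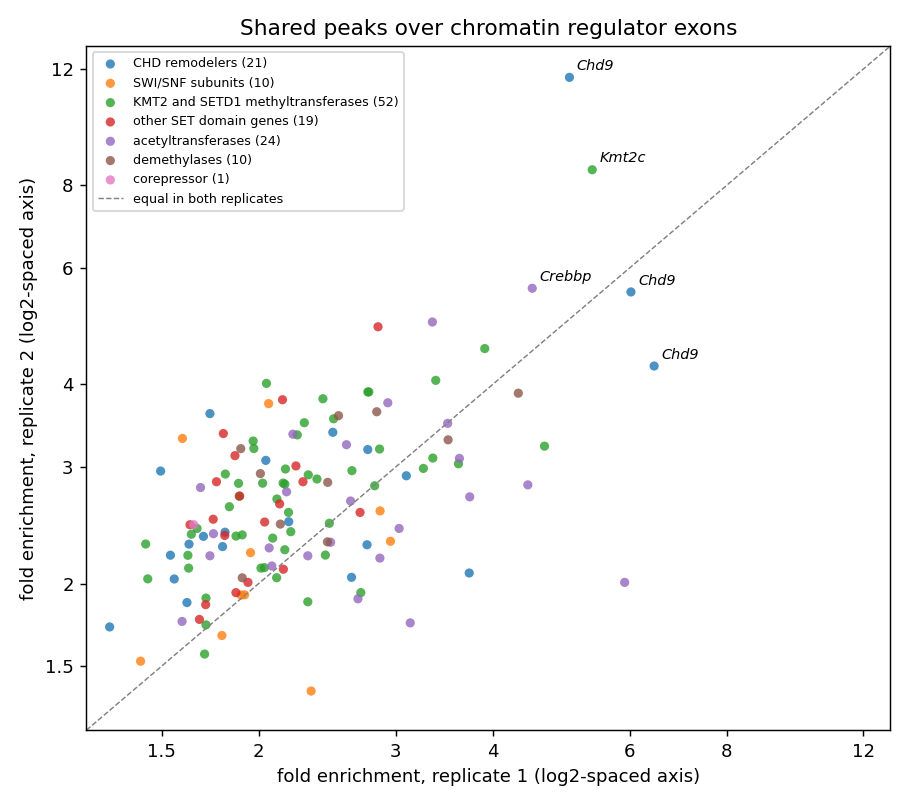
Fold enrichment of the 137 shared peaks in replicate 1 (horizontal axis) and replicate 2 (vertical axis), on log2-spaced axes, with a point for each replicate 1 peak and its colour giving the role of the gene. The dashed line marks equal values, and the 5 points named are those with at least 4-fold enrichment in both replicates, 3 of them in Chd9. Most points lie between 1.5 and 4 on both axes, and 36 lie below the line.

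The KMT2 and SETD1 methyltransferases, which methylate histone H3 at the lysine that marks promoters and enhancers, all had shared peaks. The 7 genes carried 52, or 5.43 per 10 kb of exon, with 73 peaks in replicate 1 and 71 in replicate 2. Kmt2c and Kmt2d encode the enhancer methyltransferases of the family. Kmt2c had 20 peaks in replicate 1 and 17 in replicate 2, 12 of them shared. Its tallest, chr5:25354208-25354914 across exons 19 and 20, was enriched 5.37-fold in replicate 1 and 8.45-fold in replicate 2, with its midpoint in the intron between them and 347 of its 707 bp exonic. The next, over the 169 bp exon 27 (chr5:25338262-25338684), reached 4.66 and 3.23. A peak over its 704 bp exon 14 followed at 3.38 and 4.06, and the other 9 stayed under 3 in replicate 1.

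Kmt2d had 16 peaks in replicate 1 and 17 in replicate 2, with 11 shared. They were broad. Together they covered in both replicates 10189 bp, or 51.1% of the exonic bases of the gene, and touched 27 of the 55 exons of its principal transcript. The tallest were a pair of replicate 1 peaks over exons 7 to 9 (chr15:98864496-98865194, 2.77) and exons 4 to 6 (chr15:98865315-98866370, 2.76), both met by a single replicate 2 peak at 3.90. A 2838 bp peak over exons 10 to 12 followed at 3.35 and 3.10. In Kmt2c the bases covered in both replicates made up 17.5% of the exonic bases. The highest values in replicates 1 and 2 were 5.37 and 8.45 for Kmt2c against 3.35 and 3.90 for Kmt2d. The medians over all exonic peaks were closer, at 2.10 and 2.81 for Kmt2c and 2.41 and 2.64 for Kmt2d.

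Setd1b and Setd1a encode the enzymes responsible for much of the trimethylation at active promoters. Setd1b had 11 peaks in replicate 1 and 10 in replicate 2, and 10 were shared. They covered in both replicates 52.6% of its exonic bases, the largest share among the 32 genes. The tallest, over exon 10 (chr5:123158347-123159052), had a fold enrichment of 3.91 and 4.53 and 6 GGAC in its 552 exonic bp. The peak over the 1209 bp exon 5 followed at 3.61 and 3.03. Setd1a had 4 peaks in replicate 1 and 6 in replicate 2, with 4 shared, between 1.43 and 2.16 in replicate 1 and between 2.25 and 2.98 in replicate 2. Of these 4 shared peaks, 3 also covered an exon of Gm49388, a gene annotated on the same strand, so the source of that signal cannot be assigned.

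Of the other members of the family, Kmt2b had 10 and 9 peaks with 8 shared, or 8.34 per 10 kb. The 8 lay between 1.62 and 2.24 in replicate 1 and between 1.56 and 3.36 in replicate 2. Kmt2a, the gene rearranged in leukaemia as MLL, had 8 and 10 peaks with 5 shared, the tallest over the 4237 bp exon 27 at 1.97 and 3.20. Kmt2e, a family member with little known methyltransferase activity, had 4 and 2 peaks with 2 shared, at 1.62 and 2.21 over the start of the gene and 1.64 and 2.37 over exon 21.

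The acetyltransferases Crebbp and Ep300 are paralogous coactivators that acetylate histones at enhancers and promoters. They had the highest density of shared peaks of any role, 24 in all or 8.63 per 10 kb. Crebbp had 25 peaks in replicate 1 and 18 in replicate 2, with 16 shared, or 11.8 per 10 kb. The peak over exon 21 reached 4.50 and 5.59 and held the 57 coding bases printed above within 388 bp. A peak over exon 6 was called at 5.91 in replicate 1 and 2.01 in replicate 2, so its height differed between the replicates. Peaks over exon 2 (4.44 and 2.82), exon 8 (3.62 and 3.09) and exon 18 (3.50 and 3.49) came next. Ep300 had 8 peaks in replicate 1 and 14 in replicate 2, and all 8 of replicate 1 were shared. That is 5.60 per 10 kb, so the high density of the pair came mostly from Crebbp. The tallest, chr15:81628433-81628633 across exons 15 and 16, had 3.35 and 4.97 with 81 of its bases exonic, and that over exon 2 had 2.93 and 3.75. The other 6 Ep300 peaks lay between 1.68 and 2.31 in replicate 1.

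Crebbp also stood out for peaks that reached into introns. Of the 137 shared peaks, 25 (18.2%) were less than 50% exonic, compared with 15.5% of all shared peaks over protein-coding exons. Of these 25, Crebbp held 10 and Kmt2c held 5. The 1 in Chd3 reached beyond the 5′ end of the gene and not into an intron. One Crebbp peak (chr16:4091959-4092178) touched exon 28 by 1 bp only. Median enrichment over the 25 was 2.76-fold (replicate 1) and 3.23-fold (replicate 2), and over the other 112 it was 2.07-fold and 2.56-fold. Whether these peaks came from unspliced transcripts was not tested.

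Among the demethylases, Kdm6b, which removes repressive methyl groups from lysine 27 of histone H3, had 9 and 8 peaks with 6 shared, or 8.63 per 10 kb. The tallest, over exons 6 to 9 (chr11:69406873-69407708), had a fold enrichment of 4.32 and 3.88. A peak over exons 3 and 4 that covered the start codon had 3.51 and 3.30, and the 3084 bp peak over exons 9 to 13 had 2.84 and 3.64. Kdm5a and Kdm5b, which remove the methyl groups that the KMT2 enzymes add, looked different. Each had 2 peaks in replicate 1, both shared, against 9 for Kdm5a and 16 for Kdm5b in replicate 2. In replicate 2 the peaks of Kdm5b ran along most of its exons, up to 5.63 over exon 1, and apart from exons 19 and 23 none of its exons had a peak in replicate 1.

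The 2 shared peaks of Kdm5a lay over exons 19 and 23 of its 28 exons, and the 2 shared peaks of Kdm5b lay over exons 19 and 23 of its 27. Over exon 19 the fold enrichment was 1.90 and 2.04 for Kdm5a and 1.90 and 3.20 for Kdm5b, and over exon 23 it was 2.13 and 2.46 for Kdm5a and 2.01 and 2.93 for Kdm5b. The exons are 356 bp long in both genes for exon 19, and 552 and 486 bp for exon 23. They are the longest internal exons of Kdm5b, and in Kdm5a only exon 27 (411 bp) comes between them in length. The stretches of exon 19 covered in both replicates were compared, from Kdm5a (chr6:120412298-120412497, plus strand, the central 200 bases) and Kdm5b (chr1:134617850-134618047, plus strand).
Kdm5a exon 19: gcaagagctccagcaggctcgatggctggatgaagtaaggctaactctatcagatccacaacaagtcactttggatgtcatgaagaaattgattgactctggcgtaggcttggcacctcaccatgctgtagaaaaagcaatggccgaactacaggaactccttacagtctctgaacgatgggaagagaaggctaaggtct
Kdm5b exon 19: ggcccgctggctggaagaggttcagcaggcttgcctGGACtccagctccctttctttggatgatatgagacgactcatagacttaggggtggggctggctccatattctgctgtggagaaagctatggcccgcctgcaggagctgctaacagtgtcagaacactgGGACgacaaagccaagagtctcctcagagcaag
The Kdm5b stretch holds 2 GGAC and the Kdm5a stretch holds none. Over the whole exon the paralogs were 59.5% identical with no identical run longer than 9 bases, and over exon 23 they were 54.3% identical with no run longer than 8. This pairing was noticed in the data and is one of 5 paralog pairs compared. In Crebbp and Ep300, with 31 exons each, 6 of the 7 Ep300 exons covered in both replicates (85.7%) were also among the 16 of Crebbp (37.5% of these), namely exons 1, 2, 14, 15, 30 and 31. Their coding parts were 51.8 to 78.1% identical, with identical runs of at most 19 bases. The same exon numbers were shared by 2 exons of Arid1a and Arid1b (50.0% of 4 and 100.0% of 2), with 20 exons each. Kmt2c and Kmt2d had 7 exon numbers in common (58.3% of 12 and 25.9% of 27), and Setd1a and Setd1b had 3 (75.0% of 4 and 25.0% of 12). Covered exons were 12 of 59 in Kmt2c, 27 of 55 in Kmt2d, 4 of 19 in Setd1a and 12 of 16 in Setd1b. The part of this coverage in the common numbers was not tested. Exons were paired by number alone in all 5 pairs, so a common number need not mean a matching exon. For example, exons 19 and 20 of Kmt2c are 182 and 165 bp long, as are exons 16 and 17 of Kmt2d. Sequences of the exons so paired were aligned only for Kdm5a with Kdm5b and for Crebbp with Ep300.

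**Figure D3:**
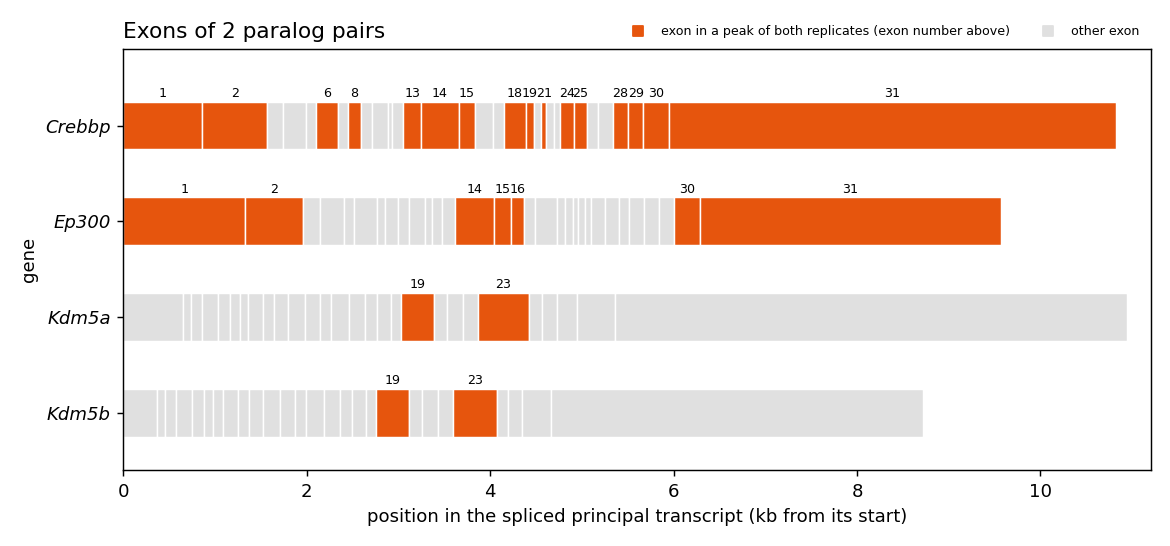
Exons of the principal transcripts of Crebbp, Ep300, Kdm5a and Kdm5b drawn to scale along the spliced transcript (horizontal axis, kb from its start), with exons holding a base covered in both replicates in orange and numbered. Exons 19 and 23 are the orange exons of both Kdm5a and Kdm5b, and Crebbp has 16 orange exons where Ep300 has 7.

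The CHD genes encode remodelers with paired chromodomains. Of the 9, 6 had a shared peak, 21 in all or 1.73 per 10 kb, with 36 peaks in replicate 1 and 67 in replicate 2. The subfamilies differed in number. Chd3, Chd4 and Chd5, the ATPases of the NuRD complex that joins remodeling to deacetylation, had 1 peak in replicate 1, 15 in replicate 2 and 1 shared. Chd6 to Chd9 had 20 and 36 with 14 shared, and Chd1 and Chd2 had 15 and 16 with 6 shared.

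Chd9 had the tallest shared peak of the 32 genes. It had 11 peaks in replicate 1 and 12 in replicate 2, with 8 shared. The peak over its 1614 bp exon 3, which holds the start codon (chr8:90932202-90934013), was enriched 5.02-fold in replicate 1 and 11.7-fold in replicate 2 and covered the whole exon in replicate 1. In replicate 1 that value exceeded 89.6% of all peaks of the list. Its other coding peaks were lower, at 2.63 and 2.04 over exon 13, 2.19 and 2.48 over exon 32, and 1.81 and 2.39 over the stop codon.

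Chd9 was also the gene with the most peaks in introns. A dense run of peaks lay upstream of exon 3, starting at exon 2 and ending inside the 82489 bp intron 2. In replicate 1 it held 13 peaks, 10 of them shared, from position 90849508 to 90886314 of chromosome 8, which covered 91.8% of those 36807 bp with a median fold enrichment of 4.40 (range 2.90 to 7.36). In replicate 2 it held 28 peaks, 27 of them shared, from 90849651 to 90887312, which covered 62.7% of 37662 bp with a median of 4.29 (range 2.01 to 8.20). The run therefore had the same bounds to within about 1 kb in both replicates, and 22678 bp of it were covered in both. Exon 2 and exons of minor Chd9 transcripts make up 1744 exonic bp of the gene in this range, and through them 2 replicate 1 peaks counted as exonic (6.45 and 4.27 at chr8:90849508-90855989, 6.03 and 5.52 at chr8:90866329-90875655). Without them Chd9 would have 6 shared peaks. The annotation also places there Gm45640, a transcript of unsettled type on the same strand with 1896 exonic bp, and the end of the antisense Gm45641. Which transcript the run belongs to was not tested. Outside Chd9, the 32 genes held 11 intron-only peaks in replicate 1, 7 of them in Kmt2a with 1 shared, and 5 in replicate 2.

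Chd2, a gene mutated in childhood epilepsy, had 7 and 14 peaks with 5 shared, including a 2349 bp peak over the stop codon and 3′ UTR at 2.04 and 3.07. Chd8, one of the genes most often mutated in autism, had 4 and 15 peaks, and all 4 of replicate 1 were shared. The Chd8 peak over exon 1 stood at 2.49 and 3.39 and reached the start codon in replicate 1 alone. Chd7, the gene of CHARGE syndrome, had 3 and 7 peaks with 2 shared, at 1.63 and 2.29 over the start codon in exon 2 and 1.56 and 2.03 over exons 30 and 31. It also had the tallest unshared peak of the set, 8.43 in replicate 2 over exon 17 with no replicate 1 peak. Chd1 had 8 peaks in replicate 1, between 2.28 and 3.88, and only 2 in replicate 2, with 1 shared over exon 12 at 3.73 and 2.07. Chd3 had 1 and 5, with a shared peak at the start codon of 1.29 and 1.72, the lowest of the set in replicate 1. Only 43 of the 301 bp of that replicate 1 peak were exonic, and the others lay beyond the 5′ end of the gene.

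The 3 CHD genes without a shared peak had few peaks or peaks in replicate 2 alone. Chd4 had no peak in replicate 1 and 3 in replicate 2, at 2.19 over exons 20 and 21, 2.35 over exons 26 to 29 and 1.33 in the 3′ UTR. Chd5, the NuRD ATPase of neurons, had none in replicate 1 and 7 in replicate 2, between 1.60 and 2.82, of which 4 lay in the 3′ UTR of its 3280 bp last exon. Chd6 had 2 in each replicate, at 1.50 over exon 37 and 1.53 over exon 15 in replicate 1 and at 1.63 over exon 16 and 2.54 over exon 14 in replicate 2, so that neighbouring exons were covered but none in both.

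Among the SWI/SNF subunits, the ARID proteins that guide the complex to its targets carried all 10 shared peaks. The 3 Arid genes had 26 peaks in replicate 1 and 14 in replicate 2. Arid1a had 9 and 6 with 4 shared, among them one at 1.92 in both replicates over the last exon with the stop codon. Its replicate 1 peak over exon 1 and the start codon (1.60) met 2 peaks of replicate 2, at 2.53 over exon 1 and at 3.31 outside the principal exons, and neither covered the start codon. Arid2, of the PBAF form of the complex, had 9 and 4 with 4 shared, the tallest in the 3′ UTR at 2.06 and 3.74, and 2 others within its 2843 bp exon 15 at 2.95 and 2.32 and at 1.95 and 2.23. Arid1b had 8 and 4 with 2 shared, at 1.79 and 1.67 over exon 8 and 1.90 and 1.92 over its last exon, which is 6294 bp long. The ATPases of the complex had no shared peak. Smarca2 had none in replicate 1 and 2 in replicate 2, at 1.34 over exon 5 and 1.78 in the 3′ UTR. Smarca4, with 6475 bp the gene of least exonic length here, was the only one of the 32 with no exonic peak in either replicate.

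Of the other SET domain genes, 4 of 5 had shared peaks, 19 in all or 2.79 per 10 kb. Nsd1, which dimethylates lysine 36 of histone H3, had 6 and 13 peaks with 5 shared. Its tallest, over exon 2 (chr13:55213274-55214275), had 2.85 and 4.89, and a 3179 bp peak over the stop codon had 1.89 and 2.71. Ash1l, another methyltransferase for the same residue, had 9 and 14 with 6 shared, of which 3 lay within its 4558 bp exon 2, at 2.28, 1.76 and 1.80 in replicate 1 and 2.85, 2.85 and 3.37 in replicate 2, where 1 peak spanned the first pair. Setd2, which trimethylates that residue along transcribed genes, had 6 and 8 with 3 shared, and the first of these was a 3887 bp peak over its 4286 bp exon 3 at 2.70 and 2.56. Setd5 had 6 and 9 with 5 shared, the tallest in the 3′ UTR at 2.15 and 3.79. Ezh2, the catalytic subunit of Polycomb repressive complex 2, had no peak in replicate 1 and 1 in replicate 2, at 1.81 over exon 15. The corepressor Ncor1, which recruits a histone deacetylase to nuclear receptors, had 2 and 4 peaks with 1 shared over its 547 bp exon 20 at 1.65 and 2.45.

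By transcript region, taken at the midpoint of the peak, shared peaks of the 32 genes lay in coding sequence (CDS) for 93 of 137 (67.9%), against 50.7% of all shared peaks over protein-coding exons. The CDS makes up 54.6% of the exonic bases of the 32 genes, and exons of non-coding transcripts make up 24.0%. Among CDS and UTR alone, the CDS held 93 of 120 shared peaks (77.5%) and 71.9% of the bases in the 32 genes, and 54.8% of all shared peaks. The 3′ UTR held 18 (13.1%), against 30.4% of all shared peaks and 17.2% of the exonic bases. The 5′ UTR held 9 (6.57%), against 11.5% of all shared peaks and 4.12% of the exonic bases. Another 3 (2.19%) had their midpoint in an exon of a non-coding transcript of the gene, and 14 (10.2%) outside every exon. These 14 were counted as intron, although the midpoint of the Chd3 peak lay beyond the 5′ end of the gene. Over all peaks of each replicate the shares were 69.7% ± 1.64 for the CDS, 14.6% ± 1.61 for the 3′ UTR and 4.81% ± 0.0628 for the 5′ UTR (SD, n = 2). The CDS share of the 32 genes was thus above that of all shared peaks. The SD is the spread between 2 lists for the same genes and does not measure the error of a difference between gene sets. When a peak was given the region with the most of its bases, the CDS shares were 56.9% for the 32 genes and 41.1% for all shared peaks. The part that the coding share of their exons has in this difference was not tested.

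**Figure D4:**
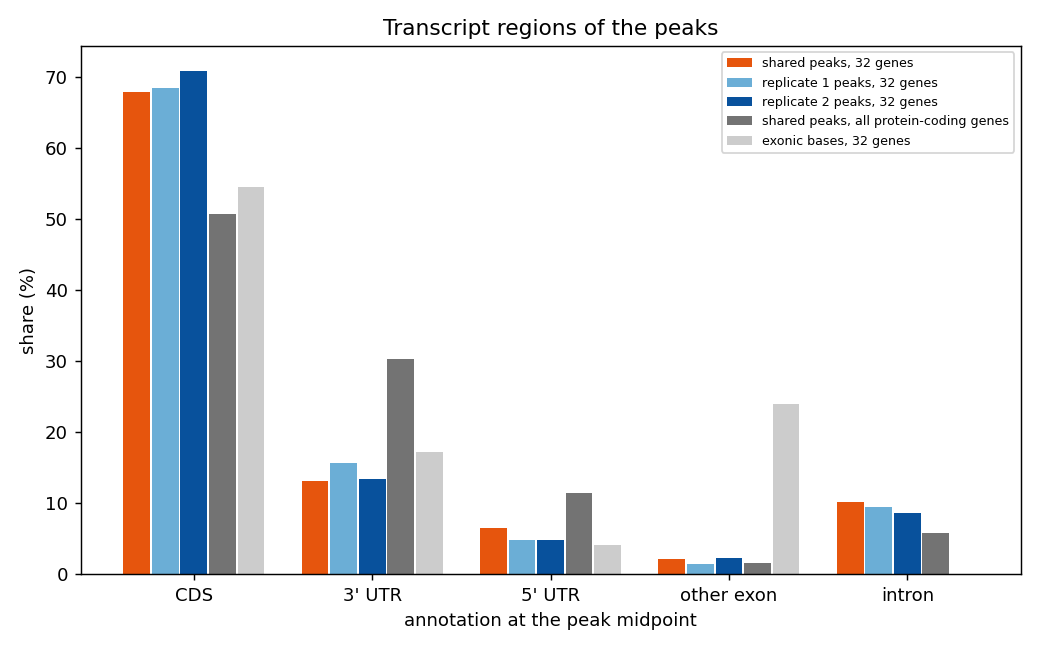
Share of peaks by the annotation at their midpoint (vertical axis, %), for shared peaks of the 32 genes (orange), all exonic peaks of the 32 genes in replicate 1 (light blue) and replicate 2 (dark blue), and shared peaks of all protein-coding genes (dark grey), beside the share of the exonic bases of the 32 genes (light grey, which has no value for introns). The CDS bars of the 32 genes stand at 67.9, 68.6 and 70.9%, above 50.7% for all protein-coding genes.

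The start codon of the principal transcript was covered by the replicate 1 peak for 10 of 137 shared peaks (7.30%), against 11.4% of all shared peaks over protein-coding exons. They lay in Chd3, Chd7, Chd8, Chd9, Arid1a, Kmt2c, Setd1b, Ep300, Crebbp and Kdm6b, and a replicate 2 peak covered the codon as well in 6, all but Chd8, Chd9, Arid1a and Setd1b. The highest in replicate 1 after Chd9 were those of Crebbp (3.74 and 2.70) and Kdm6b. The stop codon was covered by 11 (8.03%), also against 11.4%. These lay in Chd2, Chd9, Arid1a, Kmt2b, Kmt2d, Setd1b, Setd2, Setd5, Nsd1, Crebbp and Kdm6b, with fold enrichment between 1.63 (Setd5) and 2.86 (Setd1b) in replicate 1, and a replicate 2 peak covered the codon as well in 9, all but Kmt2d and Nsd1.

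Long internal exons were the ones most often covered by peaks of both replicates. Of 40 internal exons of at least 600 bp in the principal transcripts, 34 (85.0%) held a base covered in both replicates, against 30.9% of such exons in all protein-coding genes and 79.0% in genes with a shared peak. The 6 without were in Chd6 (exon 31), Arid1b (exon 18), Kmt2c (exons 43 and 52), Setd1a (exon 7) and Setd2 (exon 12). For internal exons of 300 to 599 bp it was 16 of 35 (45.7%), against 10.9% in all genes and 43.6% in genes with a shared peak. For exons of 150 to 299 bp it was 42 of 356 (11.8%), against 2.44% and 11.5%. For exons under 150 bp it was 30 of 528 (5.68%), against 0.448% and 2.77%. The shares of the 32 genes include exons of the 6 genes without a shared peak. The comparison with genes that had a shared peak is therefore not like for like. Longer exons also offer a peak more bases to fall on. First exons held such a base in 12 of 32 genes (37.5%), against 4.57% of first exons in all protein-coding genes with 2 or more exons and 36.1% in those with a shared peak. Last exons did so in 16 of 32 (50.0%), against 7.68% and 60.7%. These 12 first exons and 16 last exons all lay in the 26 genes with a shared peak, whereas the shares are over all 32 genes. Of the 115 shared peaks with their midpoint in an exon of the principal transcript, 23 (20.0%) had it in the last exon, which makes up 26.1% of the transcript when each gene is weighted by its shared peaks.

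**Figure D5:**
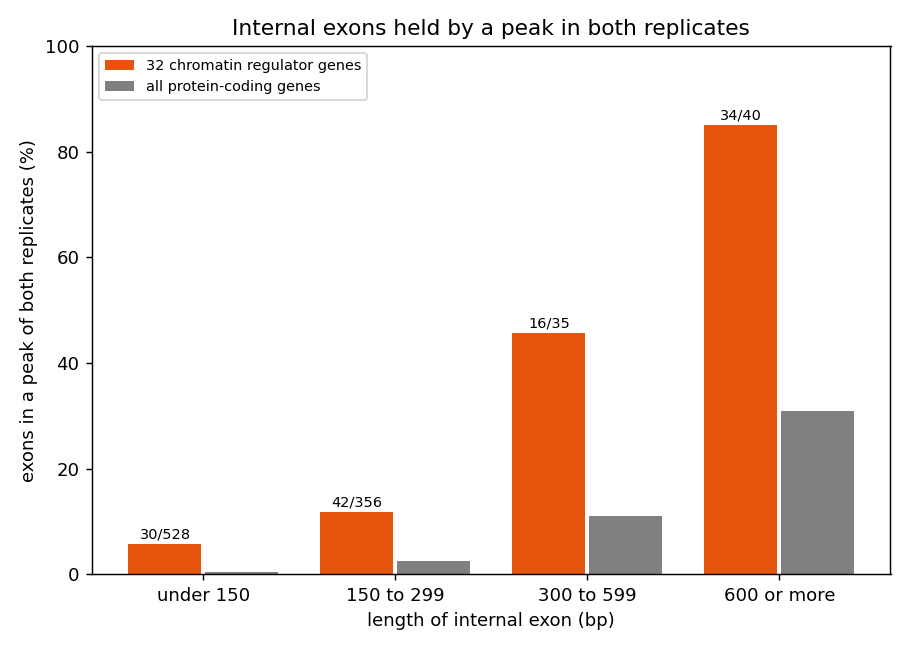
Share of internal exons that hold a base covered in both replicates (vertical axis, %), by exon length in bp (horizontal axis), for the principal transcripts of the 32 genes (orange, with the counts above each bar) and of all protein-coding genes (grey). The orange share rises from 5.68% under 150 bp to 85.0% at 600 bp or more, and the grey share from 0.448% to 30.9%.

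The motif GGAC was searched on the strand of each gene in the exonic bases of each replicate 1 peak. It was present in 103 of 137 shared peaks (75.2%), against 77.8% of all shared peaks over protein-coding exons, at a median exonic length of 409 and 376 bp. The longer form GGACT was present in 40.1% against 42.9%. Per kb, the exonic bases of shared peaks in the 32 genes held 4.73 GGAC, and their exonic bases outside every peak held 3.32, with a GC content of 53.5% and 45.8%. Within coding bases alone the values were 5.14 and 4.60 per kb, at a GC content of 54.2% and 50.5%, and for GGACT 1.37 and 0.911 per kb. The broader m6A motif DRACH (A, G or T, then A or G, then AC, then A, C or T) had nearly the same density in shared peaks and outside every peak, at 20.3 and 20.1 per kb of exonic bases and 21.4 and 21.2 per kb of coding bases. The share of peaks with GGAC in these genes was thus near that of all shared peaks. GC content moved with the motif, and its part in the difference was not tested. A match says only that the letters are present and shows no methylation or binding at that base.

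Other genes of the same machinery were read for comparison from a list of 146 chromatin genes by class, none of them among the 32. A shared peak was found in 47 of the 146 (32.2%), and in 43 of the 79 within the exonic length range of the 32 genes (54.4%, beside the 31.5% of all protein-coding genes in that range). Their median exonic length was 6791 bp. By class, genes with a shared peak numbered 3 of 20 for Polycomb, 2 of 11 for NuRD subunits and 5 of 23 for further SWI/SNF subunits. The class listed as COMPASS subunits and cofactors had 2 of 9, namely Hcfc1 and Kansl1. In that class Men1, Wdr5, Ash2l, Rbbp5 and Dpy30 had no peak in either replicate. Genes with a shared peak numbered 7 of 15 for other demethylases, 7 of 14 for other remodelers and 5 of 8 for DNA methylation genes. They numbered 6 of 16 for other methyltransferases, 2 of 7 for other acetyltransferases, 5 of 18 for deacetylases and corepressors and 3 of 5 for bromodomain readers. Median exonic length also differed by class, from 4093 bp for NuRD subunits to 15262 bp for DNA methylation genes. The part of length in these shares was not tested. The most shared peaks were in Srcap (12), Hdac4 (9) and Tet1 (8), then Asxl1, Gatad2a, Kat6a and Tet3 (7 each). By mean fold enrichment the first 5 were Asxl3 (10.9 and 5.85), Tet1 (10.8 and 3.71), Kat6b (3.49 and 9.79), Tet3 (7.41 and 4.52) and Gatad2a (4.71 and 5.17).

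Of the 137 shared peaks, 9 also covered an exon of another gene, on the opposite strand for 4 and on the same strand for the others, and for all 9 the transcript of origin cannot be told. As a look at the tissue, 20 markers of neurons, oligodendrocytes, astrocytes and microglia, 5 for each, were read from the same lists. A peak in either replicate was found for 7 of the 20, and a shared peak for 3 (Slc1a2, Csf1r and Tmem119). Peak lists hold no expression level, so these counts do not show which cells the RNA came from.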

How the data were processed

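Prrc2a RIP-seq peaks of 2 replicates from mouse whole brain were analysed as deposited. The authors trimmed reads, aligned them to mm10 with TopHat2, kept uniquely mapped reads of mapping quality 20 or more and called peaks per replicate with MACS2 at an FDR below 0.05. The submitters' processing notes give TopHat2 2.0.9 and MACS2 2.0.10, and the study's methods give other versions. The deposited fold enrichment is a linear ratio over an unnamed control and was used without rescaling. Read depth was not analysed here, so no counting interval was given, and errors are the SD between replicates.

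Overlaps were computed with Python 3.11.15, numpy 2.4.6, pandas 2.3.3 and pysam 0.24.0 on GENCODE M21 and GRCm38, and figures were drawn with matplotlib 3.10.9. All 32 spliced principal transcripts equalled the GENCODE sequence. The functions for sharing, regions and motifs were tested on simulated data, and all 4 simulated quantities were recovered exactly. The genes and lists were chosen with earlier results of these data known. Described in more detail were genes without a shared peak, the 6 with the highest mean enrichment and the 6 with the most shared peaks. Genes with a shared peak over the start or stop codon were added, and not every peak of these genes was listed. Of the other chromatin genes, the 5 highest by each measure were named (7 by number of shared peaks, because 4 tied). Alternatives changed the overlap rule, the replicate counted, an enrichment minimum of 4, the annotation, the region rule and the motif, and each replicate was left out in turn.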

Additional observations from a re-analysis of the deposited data

How the results depend on the processing

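No paired analysis was possible because there was 1 condition. With an enrichment minimum of 4 in each replicate there were 3 genes and 5 shared peaks (2.38% of replicate 1 peaks), with 40.0% in the CDS, 0% in the 3′ UTR, 0% in the 5′ UTR, a median of 5.77 and GGAC in 80.0%. Leaving out each replicate gave 210 to 268 peaks, 68.6 to 70.9% CDS, 13.4 to 15.7% 3′ UTR, 4.76 to 4.85% 5′ UTR, a median enrichment of 2.13 to 2.48 and GGAC in 65.3 to 69.0%. An overlap of 50% of both peaks gave 45.7% shared and 8.33% 5′ UTR. Counting replicate 2 peaks gave 59.3% shared, 70.4% CDS and 5.66% 5′ UTR. GENCODE basic transcripts gave 70.5% CDS and 6.82% 5′ UTR. Whole gene spans gave 63.7% CDS and 6.16% 5′ UTR. Taking the region with the most bases gave 56.9% CDS and 8.76% 5′ UTR. Assigning each peak to the gene with the most exon bases gave 5.88% 5′ UTR. GGACT was found in 40.1%, DRACH in 96.4%, and GGAC in a short window around the midpoint in 40.3%. The other 36 of 68 values moved by less than the spread between replicates or, for counts, stayed within 1.5 times. The CDS was the most frequent region in every alternative except the enrichment minimum of 4, where 3 of 5 peaks had their midpoint in an intron. Read depth is unknown, so an absent peak sets no limit on binding.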
